A study of Mus musculus with 10 samples.

Results

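The heat shock and chaperone system was followed through 10 genes in sorted mouse skin cells that carry a progeria transgene pair and in wild type cells. They were Hspa1a, Hspa1b, Dnajb1, Hsph1, Hspb1, Hsp90aa1, Hspa8, Hsp90ab1, Hspd1 and Hspe1, taken as the loci of both deposited tables whose gene name contains one of these symbols. All 10 genes were found, and all their loci had a usable test. Hspa1a and Hspa1b share 1 merged locus and were counted once, which gives 9 loci of the 11464 with a usable test in suprabasal cells and 10 of 11290 in basal cells. The tenth basal locus is a second entry for Hspb1.

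RNA was sequenced from FVB/N mouse skin keratinocytes, sorted by flow cytometry, at postnatal day 4. There were 2 suprabasal bitransgenic samples, 3 suprabasal wild type samples, 2 basal bitransgenic samples and 3 basal wild type samples. The bitransgenic mice (BT) model Hutchinson-Gilford progeria syndrome (HGPS), in which a truncated lamin A called progerin accumulates, and wild type mice (WT) were their controls. The labels name neither the transgenes nor the promoter that drives them, and they do not say whether the 6 title stems stand for single animals. Of these stems, 3 WT and 1 BT occur in both layers. Each group has 1 level per locus, the authors' pooled group value. The header gives no unit, and the level is read here as FPKM (fragments scaled for transcript length and for library size) because of the table's layout and the tools named. No level therefore carries an error, and the depth of the single samples is unknown. Fold changes are log2 ratios of BT over WT, and the ± beside them is a standard error (SE) derived from the authors' p.

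The heat shock response protects proteins from unfolding. Under resting conditions the transcription factor HSF1 is held inactive by chaperones, and when unfolded proteins draw these chaperones away, HSF1 forms trimers that bind heat shock elements and switch on inducible chaperone genes. Hsp70 proteins bind exposed stretches of client proteins in cycles driven by ATP, J proteins deliver the clients and nucleotide exchange factors release them, while Hsp90 finishes the folding of kinases and receptors. Constitutive family members do the same work in unstressed cells. Hspd1 and Hspe1 encode the chaperonin and cochaperonin of the mitochondrial matrix, so the name cytosolic does not cover these members.

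The heat shock element, the sequence that HSF1 binds, was searched only as a pair of inverted GAA units, GAANNTTC or TTCNNGAA. Each of these is its own reverse complement. The search covered the 250 bases before each annotated start in the RefSeq promoter table (build GRCm38.p6). Imperfect or gapped forms were not searched. Entries were there for 7 of the 10 genes, all but Hspa8, Hsp90aa1 and Hsp90ab1. Of all 32851 promoter windows, 12.8% held either form, 6.69% the first and 7.17% the second. The windows of the genes the results turn on are shown 5′ to 3′, with elements in capitals. Hsph1 and Hspe1 are shown as 30 bases around their elements, and the first Dnajb1 window as the 203 bases before its start.
Hspa1a, chr17:34972157-34972406, minus strand: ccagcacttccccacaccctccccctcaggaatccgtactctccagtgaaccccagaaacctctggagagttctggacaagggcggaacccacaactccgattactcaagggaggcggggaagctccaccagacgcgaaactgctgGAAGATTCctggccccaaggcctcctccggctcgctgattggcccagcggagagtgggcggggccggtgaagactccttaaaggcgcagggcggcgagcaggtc
Dnajb1, chr8:83607972-83608174, plus strand: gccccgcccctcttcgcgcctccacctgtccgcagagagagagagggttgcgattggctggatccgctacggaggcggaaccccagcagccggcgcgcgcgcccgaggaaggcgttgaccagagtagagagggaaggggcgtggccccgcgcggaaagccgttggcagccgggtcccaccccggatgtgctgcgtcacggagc
Hspb1, chr5:135887669-135887918, plus strand: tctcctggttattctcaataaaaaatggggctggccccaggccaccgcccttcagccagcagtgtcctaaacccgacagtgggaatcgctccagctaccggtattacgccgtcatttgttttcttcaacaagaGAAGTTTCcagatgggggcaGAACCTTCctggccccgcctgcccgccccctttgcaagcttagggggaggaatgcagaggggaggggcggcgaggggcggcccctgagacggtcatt
Hsph1, chr5:149636351-149636380, minus strand: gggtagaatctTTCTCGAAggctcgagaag
Hspe1, chr1:55088053-55088082, plus strand: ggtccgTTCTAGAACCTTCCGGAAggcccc

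Hspa1a held 1 element, and so did Hspa1b, whose window differed from that of Hspa1a at 3 of 250 bases. Hspb1 held 2, Hsph1 held 1, the same in each of its windows, and Hspe1 held 3 matches that overlap in 1 unbroken stretch. Hspd1 has a pair of windows, of which 1 held no element and 1 held 3, the same stretch as in Hspe1 read on the other strand. Dnajb1 also has a pair of windows, and neither held an element of the searched form. This says nothing of HSF1 binding elsewhere or at other forms of the element within these windows. The fold changes of loci with and without an element were also set side by side. In suprabasal cells the median log2 fold change was -0.08 over 916 loci with an element and -0.09 over 6829 without, and in basal cells it was -0.11 over 897 and -0.13 over 6643. The shares called lower in BT were 0.328% with an element and 0.322% without in suprabasal cells, and 2.01% and 1.49% in basal cells.

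The inducible Hsp70 genes and their J protein partner were much lower in the sorted BT cells of both layers, while no other chaperone gene was called. Hspa1a/Hspa1b had 59.9 FPKM in suprabasal BT cells, against 351 FPKM in suprabasal WT cells, and 66.1 FPKM in basal BT cells, against 268 FPKM in basal WT cells. Dnajb1 had 37.4 FPKM in suprabasal BT cells and 131 FPKM in suprabasal WT cells, and 55.4 FPKM in basal BT cells and 170.04 FPKM in basal WT cells. The BT levels were thus at 17.1% and 24.6% of WT for the Hsp70 locus in suprabasal and basal cells, and at 28.6% and 32.6% of WT for Dnajb1. A call is a q (adjusted p) under 0.05 in the authors' deposited table.

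**Figure D1:**
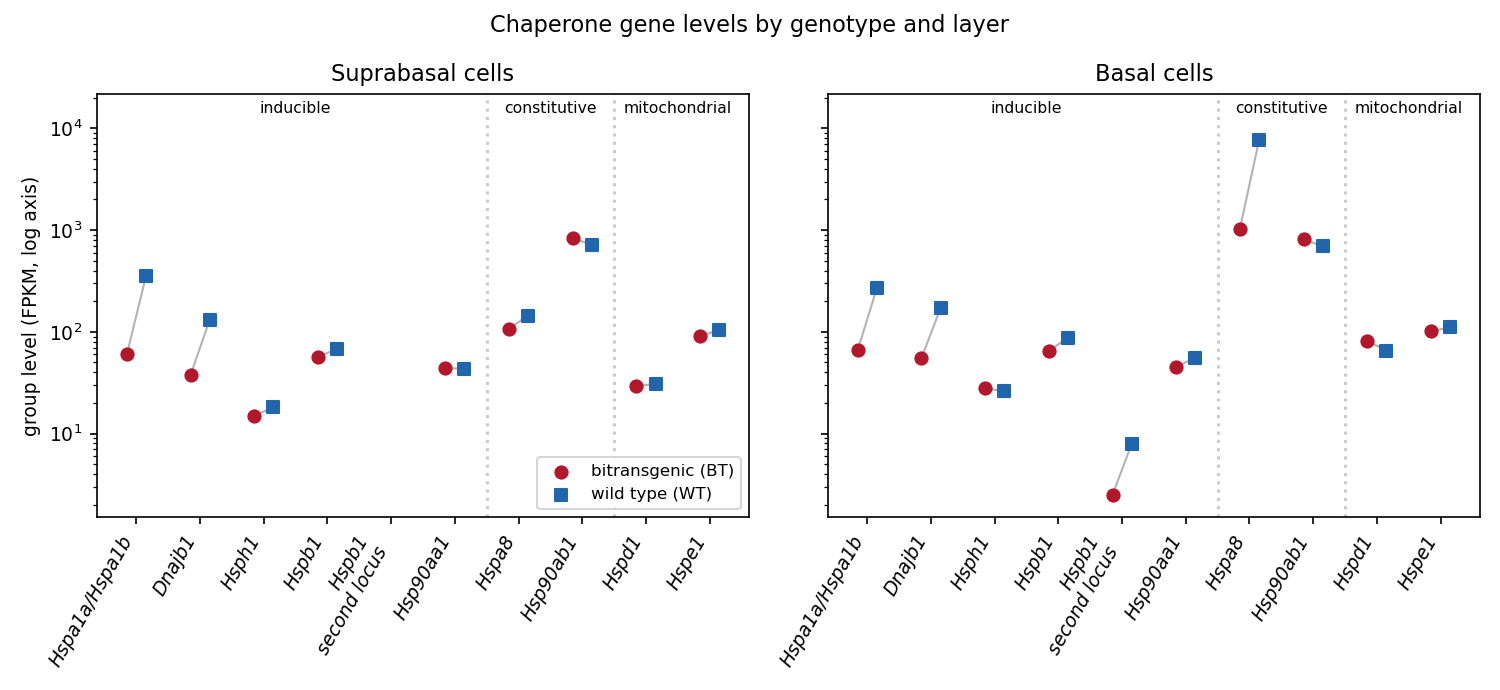
Level of each chaperone locus in BT cells (red circles) and WT cells (blue squares), suprabasal cells at left and basal cells at right, in FPKM on a log axis, with 1 deposited group value per point and no error. The steep lines belong to Hspa1a/Hspa1b and Dnajb1 in both panels and to Hspa8 in the basal panel, where BT cells had 1026 FPKM and WT cells 7624 FPKM.

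Hspa1a and Hspa1b encode the heat-inducible Hsp70 of the cytosol. The merged locus lies on the minus strand at chr17:34954165-34972290 (mm10), and the starts of the genes are 12918 bases apart. Its log2 fold change was -2.55 ± 0.63 (95% interval -3.78 to -1.32) in suprabasal cells, with a q of 0.0161 in the authors' deposited table. In basal cells it was -2.02 ± 0.52 (-3.04 to -1.003), with a q of 0.0135 in the authors' deposited table. These are levels 5.86-fold and 4.06-fold lower in BT cells. Among loci with at least 50 FPKM in WT cells, the fall ranked 18th of 1413 in suprabasal cells and 33rd of 1483 in basal cells. The deposited value cannot say which of the near-identical copies contributed. The median of expressed loci was -0.08 in suprabasal and -0.11 in basal cells. With this median subtracted, the call held in suprabasal cells and was lost in basal cells, where the adjusted p (Wald z-test with the derived SE) was 0.0524. Dnajb1 stayed under the threshold there, at 0.0489.

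Dnajb1 encodes an Hsp40, a J protein that loads clients onto Hsp70 and stimulates its ATPase. It lies at chr8:83608082-83614621 on the plus strand. Its log2 fold change was -1.81 ± 0.45 (95% interval -2.68 to -0.93) in suprabasal cells, with a q of 0.0161 in the authors' deposited table. In basal cells it was -1.62 ± 0.40 (-2.40 to -0.84), with a q of 0.00858 in the authors' deposited table. The falls were 3.50-fold and 3.07-fold, and ranked 37th and 47th among the same abundant loci. The Hsp70 locus stood at 1.601 times the level of Dnajb1 in suprabasal BT cells and 2.68 times in suprabasal WT cells, and at 1.19 times in basal BT cells and 1.58 times in basal WT cells. Apart from the basal value of the Hsp70 locus, the authors' p was the smallest the tables hold, which sets these SEs. The authors' test statistics were -3.55 and -2.93 for the Hsp70 locus in suprabasal and basal cells, and -3.04 and -3.38 for Dnajb1. Used in place of p, they would give larger SEs and wider intervals.

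These were the only calls among the chaperone loci: 2 of 9 in suprabasal cells and 2 of 10 in basal cells, all lower in BT. The members were chosen with earlier results of these data known, so these counts only describe them. Over all suprabasal loci 0.471% were called, 0.419% lower in BT, and over all basal loci 1.65% were called, 1.39% lower in BT. The basal share depends on the adjustment: it was 0.558% with Benjamini-Hochberg adjustment over loci of status OK, where both chaperone calls held, and 0.363% after centring, where Dnajb1 alone held. In these sorted cell populations, fewer cells of a type and less RNA per cell cannot be told apart.

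**Figure D2:**
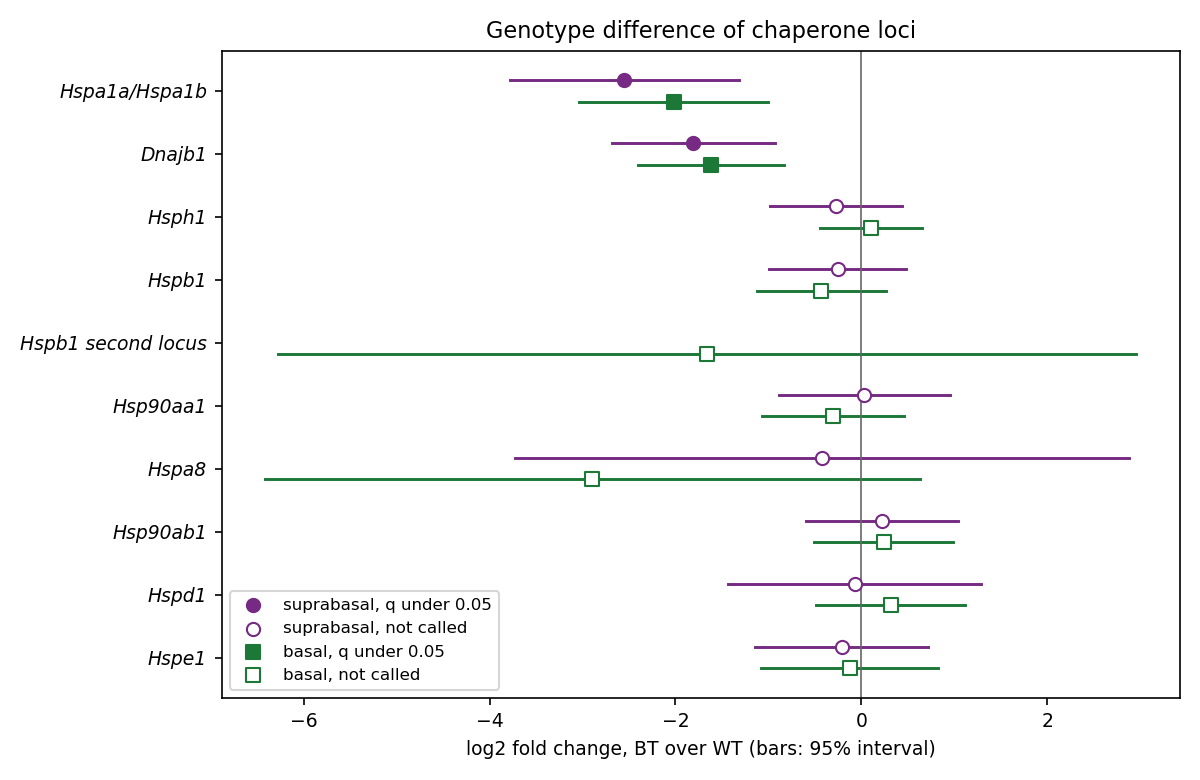
Log2 fold change of BT over WT for each chaperone locus, with suprabasal cells as purple circles above basal cells as green squares, and bars for the 95% interval derived from the authors' p. Filled symbols, at -2.55 and -2.02 for Hspa1a/Hspa1b and -1.81 and -1.62 for Dnajb1, mark a q under 0.05, and every other interval spans 0.

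The remaining inducible genes had no call. Hsph1 encodes an Hsp110, a nucleotide exchange factor for Hsp70, at chr5:149614287-149636376 on the minus strand. It had 15.01 FPKM in suprabasal BT cells and 18.1 FPKM in suprabasal WT cells (-0.27 ± 0.36, interval -0.98 to 0.44). In basal cells it had 28.0 FPKM in BT and 26.0 FPKM in WT (0.11 ± 0.28, interval -0.44 to 0.66). These intervals do not reach the point estimates of the Hsp70 locus or of Dnajb1 in the same layer.

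Hspb1, a small heat shock protein that binds unfolding proteins without ATP, lies at chr5:135887887-135889563 on the plus strand. It had 56.9 FPKM in suprabasal BT cells and 67.8 FPKM in suprabasal WT cells (-0.25 ± 0.38, interval -0.99 to 0.48). Basal BT cells had 65.02 FPKM and basal WT cells 87.7 FPKM (-0.43 ± 0.35, interval -1.12 to 0.26). The second Hspb1 entry of the basal table has the same coordinates and only 2.499 FPKM in BT and 7.89 FPKM in WT cells, with an interval from -6.27 to 2.96. All 37 annotated loci numbered within 50 of that entry are on the minus strand, and all 44 near the main entry are on the plus strand. Which strand the second entry counts is not given in the table.

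Hsp90aa1 encodes the stress-inducible Hsp90 and Hsp90ab1 the constitutive one. Hsp90aa1 (chr12:110689214-110702728, minus strand) had 44.1 FPKM in suprabasal BT cells and 43.2 FPKM in suprabasal WT cells (0.03 ± 0.47, interval -0.88 to 0.95). In basal cells it had 45.3 FPKM in BT and 55.9 FPKM in WT (-0.30 ± 0.39, interval -1.06 to 0.46). Hsp90ab1 (chr17:45567775-45573306, minus strand) was the most abundant chaperone of suprabasal cells, at 834 FPKM in BT and 717 FPKM in WT (0.22 ± 0.42, interval -0.60 to 1.04). It had 816 FPKM in basal BT cells and 691 FPKM in basal WT cells (0.24 ± 0.38, interval -0.51 to 0.99). The inducible form made up a small share of Hsp90 throughout, 5.02% in suprabasal BT cells and 5.68% in suprabasal WT cells, and 5.27% in basal BT cells and 7.48% in basal WT cells.

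Hspa8 encodes Hsc70, the constitutive Hsp70 of the cytosol, at chr9:40800984-40805200 on the plus strand. It had 108 FPKM in suprabasal BT cells and 145 FPKM in suprabasal WT cells (-0.43 ± 1.68, interval -3.73 to 2.88). In basal cells it had 1026 FPKM in BT and 7624 FPKM in WT (-2.89 ± 1.80, interval -6.41 to 0.63). The authors' test statistics for Hspa8 were -0.00721 in suprabasal and -0.628 in basal cells. Used in place of p, they would give much larger SEs than those printed here. The basal point estimate was farther from 0 than that of the other 9 loci, yet its q was 0.466 in the authors' deposited table, and its SE was more than the whole fold change of Dnajb1. The basal level exceeded the suprabasal level 9.55-fold in BT and 52.8-fold in WT. Among the other listed members the widest such gap was that of Hspd1, 2.79-fold in BT and 2.13-fold in WT. Outside the members, Dnaja4 had 50.1 FPKM in basal WT cells and 11.2 FPKM in suprabasal WT cells, but similar BT levels in the layers. The tables were normalized separately, so levels and ratios across the layers are given without a test.

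Hspa8 is also the only one of these loci with small RNA genes inside it. GENCODE places 3 box C/D small nucleolar RNAs, Snord14c, Snord14d and Snord14e, on the same strand, and such RNAs are cut from introns of their host. Snord14c is shown because its span lies within the range counted for the host locus, with the C box TGATGA and D box CTGA in capitals.
Snord14c, chr9:40803583-40803668, plus strand: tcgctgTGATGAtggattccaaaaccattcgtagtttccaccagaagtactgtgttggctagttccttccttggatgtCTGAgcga
Of 424 loci with a snoRNA gene inside, 4.48% had WT levels more than 4-fold apart between layers, against 2.20% of 10159 loci without one. These shares are 19 and 224 loci. The median size of the log2 ratio between the WT layers was close, 0.377 with a snoRNA gene and 0.388 without. Between the genotypes the same shares were 4.25% and 2.18% in suprabasal cells, and 3.30% and 2.06% in basal cells. Whether snoRNA reads entered the Hspa8 levels was not tested.

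The balance of the Hsp70 pair therefore rests on the uncertain Hspa8 levels. Hspa1a/Hspa1b made up 35.8% of the summed Hsp70 levels in suprabasal BT cells, against 70.9% in suprabasal WT cells. In basal cells it made up 6.05% in BT and 3.40% in WT. The direction of the share was thus opposite in the layers, although the inducible locus fell in both. The summed level of the inducible loci was 213 FPKM in suprabasal BT cells and 611 FPKM in suprabasal WT cells, and 262 FPKM in basal BT cells and 616 FPKM in basal WT cells.

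The mitochondrial chaperonin genes Hspd1 (Hsp60) and Hspe1 (Hsp10) are neighbours on opposite strands that overlap by 112 bases. The tables give both the interval chr1:55077835-55091307. Hspd1 had 29.2 FPKM in suprabasal BT cells and 30.7 FPKM in suprabasal WT cells (-0.07 ± 0.69, interval -1.43 to 1.28). Its basal levels were 81.5 FPKM in BT and 65.5 FPKM in WT (0.31 ± 0.41, interval -0.49 to 1.12). Hspe1 had 90.5 FPKM in suprabasal BT cells and 105 FPKM in suprabasal WT cells (-0.21 ± 0.48, interval -1.14 to 0.72). Basal BT cells had 102 FPKM of Hspe1 and basal WT cells 111 FPKM (-0.13 ± 0.49, interval -1.08 to 0.83).

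In the order of levels, the inducible Hsp70 locus took different places in the genotypes. It stood at place 4 of 9 in suprabasal BT cells, below Hsp90ab1, Hspa8 and Hspe1, and at place 2 of 9 in suprabasal WT cells, below Hsp90ab1. In basal cells Hspa8 and Hsp90ab1 led in both genotypes, and the Hsp70 locus stood at place 5 of 10 in BT, at 66.1 FPKM beside Hspb1 at 65.02 FPKM, and at place 3 of 10 in WT. Hsph1 was the lowest of the listed members in all 4 groups, apart from the second Hspb1 entry. Because the levels carry no error, neighbours in this order cannot be separated.

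Whether the genotype effect differed between layers was tested as the suprabasal log2 fold change less the basal one (two-sided Wald z-test). None of the 9 loci passed Benjamini-Hochberg adjustment over 10583 loci, of which 0.0378% passed, and 0 of 9 had an unadjusted p under 0.05. The difference was -0.53 ± 0.82 for Hspa1a/Hspa1b (95% interval -2.13 to 1.07) and -0.19 ± 0.60 for Dnajb1 (-1.36 to 0.98). For Hspa8 it was 2.47 ± 2.46 (-2.36 to 7.29). Intervals of this width leave room for differences between the layers of more than 2-fold in either direction for the Hsp70 locus. Independence of the layers is an assumption of this test, and it is doubtful here, because 3 WT stems and 1 BT stem occur in both. The SE and interval of the difference rest on it.

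**Figure D3:**
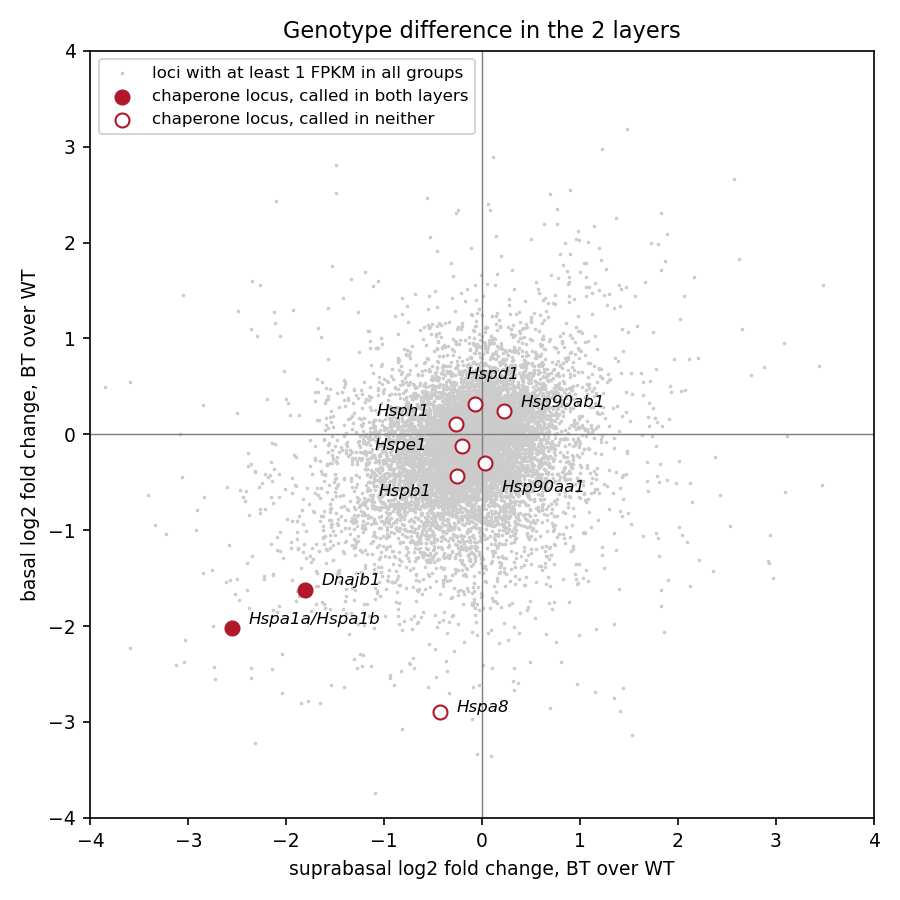
Log2 fold change of BT over WT in suprabasal cells (x) and basal cells (y), with grey points for the 10335 loci that have at least 1 FPKM in all 4 groups and fall within the axes, 24 lying beyond them. Hspa1a/Hspa1b and Dnajb1 (filled red) lie at the lower left, Hspa8 (open red) at -0.43 and -2.89, and the other chaperones near the centre.

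Among 8374 single-gene loci, the 5 with fold changes closest to the mean of Hspa1a/Hspa1b and Dnajb1, -2.18 in suprabasal and -1.82 in basal cells, were Mycl, Atp13a4, Ndufa4l2, Il34 and 4930546H06Rik. The measure was the Euclidean distance in the pair of log2 fold changes, which ran from 0.0463 for Mycl to 0.291 for 4930546H06Rik. Mycl, a transcription factor gene of the Myc family, had 4.66 FPKM in suprabasal BT cells and 20.5 FPKM in suprabasal WT cells, and 2.76 FPKM in basal BT cells and 9.84 FPKM in basal WT cells. Its basal q was 0.0371 in the authors' deposited table, and none of the other 4 was called in either layer. A likeness over only 2 fold changes describes these tables.

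The wider chaperone network had no call. It comprised 10 lists of 76 genes, covering heat shock factors, other Hsp70, J and small heat shock proteins, cochaperones of Hsp70 and Hsp90, the cytosolic chaperonin TRiC, prefoldin, mitochondrial chaperones and other heat-inducible genes. In suprabasal cells 0 of 69 loci were called, 3 had an unadjusted p under 0.05 in the authors' test, and the median log2 fold change was -0.08. In basal cells 0 of 66 were called, 4 had an unadjusted p under 0.05, and the median was 0.10. The medians over all loci were -0.08 in suprabasal cells, with 43.4% above 0, and -0.12 in basal cells, with 39.7% above 0. Over all loci 0.471% were called in suprabasal and 1.65% in basal cells. The absence of calls in a network of this size is near those shares. The share of all loci with an unadjusted p under 0.05 is not given here.

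The regulators themselves had no call, and the levels of Hsf1 were close in the genotypes. Hsf1, the main heat shock transcription factor, had 14.8 FPKM in suprabasal BT cells and 15.4 FPKM in suprabasal WT cells (-0.05 ± 0.39), and 14.5 FPKM in basal BT cells and 14.3 FPKM in basal WT cells (0.02 ± 0.30). Hsf2 had 5.201 FPKM in suprabasal BT cells and 7.44 FPKM in suprabasal WT cells, and 5.38 FPKM in basal BT cells and 6.77 FPKM in basal WT cells. Hsbp1, which binds HSF1 trimers, had 49.3 FPKM in suprabasal BT cells and 45.1 FPKM in suprabasal WT cells, and 54.3 FPKM in basal BT cells and 45.3 FPKM in basal WT cells. These are RNA levels, and HSF1 is controlled largely through its protein.

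Among the other J proteins the values farthest from 0 were below it, without a call. Dnaja1, a J protein of the cytosol, had 27.6 FPKM in suprabasal BT cells and 63.2 FPKM in suprabasal WT cells (-1.20 ± 0.79), and 36.5 FPKM in basal BT cells and 93.6 FPKM in basal WT cells (-1.36 ± 0.68). Dnaja4 had 8.07 FPKM in suprabasal BT cells and 11.2 FPKM in suprabasal WT cells (-0.47 ± 0.89), and 8.65 FPKM in basal BT cells and 50.1 FPKM in basal WT cells (-2.54 ± 1.41). At the other end, Dnajc21 had 20.5 FPKM in suprabasal BT cells and 19.9 FPKM in suprabasal WT cells (0.04 ± 0.38), and 27.3 FPKM in basal BT cells and 16.5 FPKM in basal WT cells (0.73 ± 0.38). The median of the list was -0.14 over 11 loci in suprabasal cells and -0.12 over 10 loci in basal cells.

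TRiC, the Hsp90 cochaperones and prefoldin had the highest medians of the network lists in basal cells, without a call. Basal medians were also above 0 for Hsp70 exchange factors and cochaperones (0.13), other Hsp70 and Hsp110 (0.11), other mitochondrial chaperones (0.05) and heat shock factors (0.02). They were below 0 for the other J proteins (-0.12), small heat shock proteins (-0.08) and heat-inducible genes (-0.28). All 8 TRiC subunits, which form the ring that folds actin and tubulin, lay above 0 in basal cells, with a median of 0.32, from Tcp1 (257 FPKM in BT and 244 FPKM in WT, 0.07) to Cct6a (105 FPKM in BT and 69.0 FPKM in WT, 0.60). In suprabasal cells 5 of 8 lay above 0, with a median of 0.09. Of 12 Hsp90 cochaperones, 10 lay above 0 in basal cells (median 0.23) and 3 in suprabasal cells (median -0.03). Stip1, which links Hsp70 to Hsp90, had 86.7 FPKM in basal BT cells and 56.2 FPKM in basal WT cells (0.63 ± 0.27), with a q of 0.205 in the authors' deposited table. Of the prefoldin subunits, which hand clients to TRiC, Pfdn1 had the lowest q of the network in basal cells, 0.0903 in the authors' deposited table, with 50.4 FPKM in BT and 26.0 FPKM in WT cells (0.95 ± 0.35). In suprabasal cells all 5 prefoldin loci lay above 0 (median 0.13), up to Pfdn4 with 35.4 FPKM in BT and 22.4 FPKM in WT (0.66 ± 0.63), and in basal cells Pfdn5 was lowest, with 57.1 FPKM in BT and 78.5 FPKM in WT (-0.46 ± 0.29). Unc45a, an Hsp90 cochaperone for myosin folding, was the lowest of its list in both layers, at -0.46 ± 0.53 in suprabasal and -0.59 ± 0.53 in basal cells. The 8 other mitochondrial chaperones and proteases had medians of -0.14 in suprabasal and 0.05 in basal cells, between -0.53 and 0.23.

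Other Hsp70 family genes and exchange factors spread to both sides of 0. Hspa4, an Hsp110 relative of Hsph1, had 78.7 FPKM in suprabasal BT cells and 50.9 FPKM in suprabasal WT cells, and 123 FPKM in basal BT cells and 86.2 FPKM in basal WT cells. Hspa12a had 0.202 FPKM in suprabasal BT cells and 3.05 FPKM in suprabasal WT cells, and its q of 0.232 in the authors' deposited table was the lowest of the network in that layer. St13, a cochaperone that stabilises client binding to Hsp70, had 47.5 FPKM in suprabasal BT cells and 87.1 FPKM in suprabasal WT cells (-0.88 ± 0.44), and in basal cells 79.7 FPKM in BT and 65.6 FPKM in WT (0.28 ± 0.29). Bag3, an exchange factor induced by heat, had 23.9 FPKM in suprabasal BT cells and 25.8 FPKM in suprabasal WT cells (-0.11 ± 0.34), and 20.1 FPKM in basal BT cells and 28.6 FPKM in basal WT cells (-0.51 ± 0.28). At the upper end, Bag5 had 8.42 FPKM in basal BT cells and 5.33 FPKM in basal WT cells (0.66 ± 0.43), against 7.93 FPKM in suprabasal BT cells and 8.45 FPKM in suprabasal WT cells (-0.09 ± 0.42). Hspbp1 had 44.5 FPKM in suprabasal BT cells and 39.2 FPKM in suprabasal WT cells (0.18 ± 0.39), and 32.0 FPKM in basal BT cells and 31.0 FPKM in basal WT cells (0.05 ± 0.34). Among the small heat shock proteins, Cryab had 5.30 FPKM in suprabasal BT cells and 7.46 FPKM in suprabasal WT cells, and 3.45 FPKM in basal BT cells and 7.36 FPKM in basal WT cells.

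Other genes known to rise with heat had no call. All 6 lay below 0 in basal cells, with a median of -0.28, and 4 of 6 in suprabasal cells, with a median of -0.16. Hmox1, the haem-degrading enzyme, had 14.8 FPKM in suprabasal BT cells and 8.59 FPKM in suprabasal WT cells (0.78 ± 0.47), and 5.21 FPKM in basal BT cells and 7.997 FPKM in basal WT cells (-0.62 ± 0.53).

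**Figure D4:**
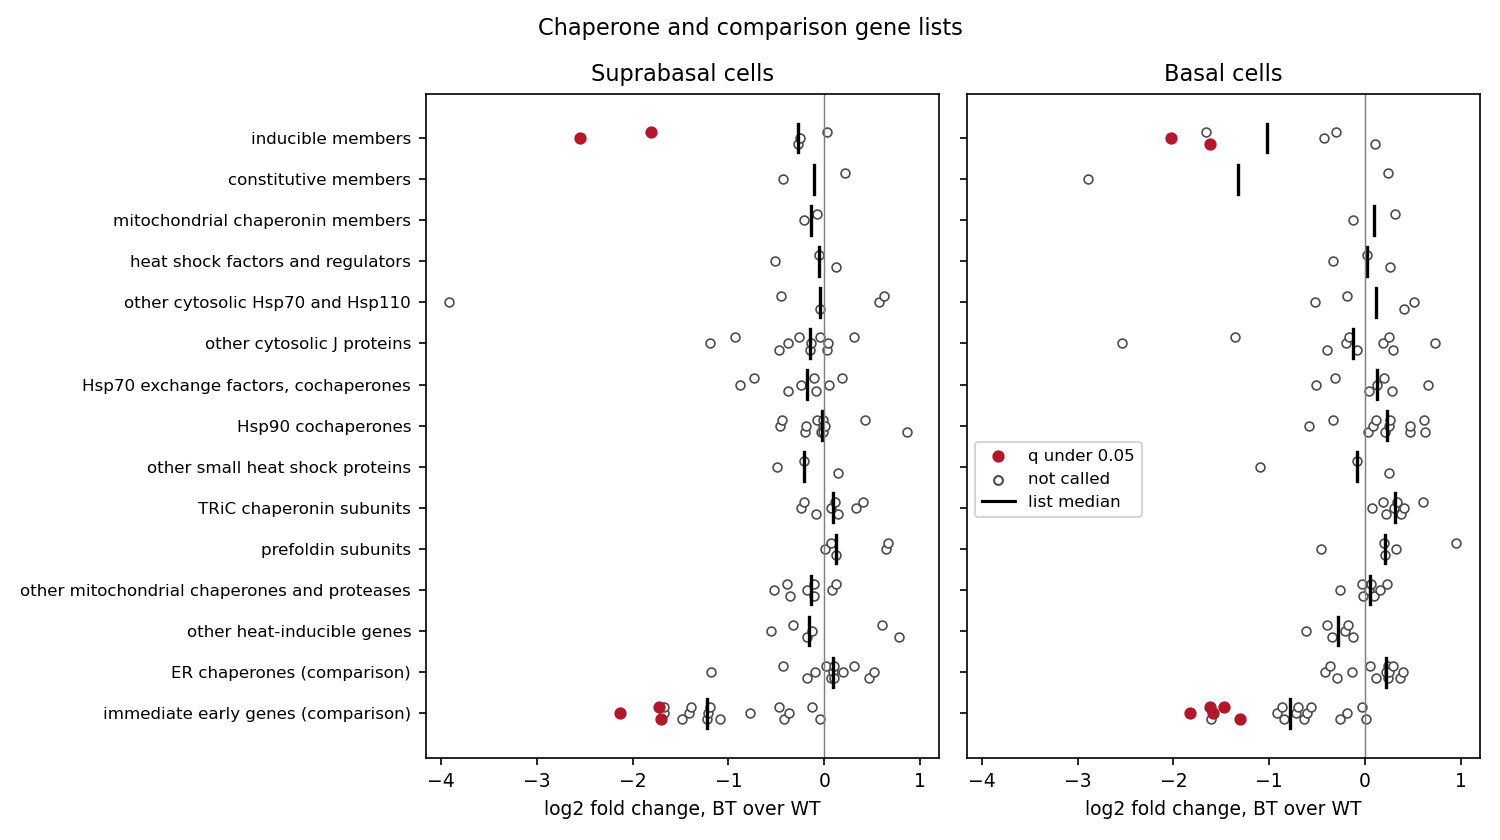
Log2 fold change of BT over WT for each locus of the chaperone lists and of both comparison lists, suprabasal cells at left and basal cells at right, with vertical bars at list medians and filled red points for a q under 0.05. Calls occur among the inducible members, 2 per layer, and among the immediate early genes, 3 in suprabasal and 5 in basal cells.

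A pair of comparison lists gave a scale for these values. Chaperones of the endoplasmic reticulum, which answer to a different stress pathway, had no call among 13 loci in either layer, with medians of 0.09 in suprabasal and 0.22 in basal cells. Over all loci 0.471% were called in suprabasal and 1.65% in basal cells, so no call among 13 is near those shares. Hspa5, the Hsp70 of the endoplasmic reticulum, had 246 FPKM in basal BT cells and 328 FPKM in basal WT cells (-0.42 ± 0.30). Immediate early genes, transcribed within minutes of many stimuli and of tissue handling, were called lower at 3 of 18 loci in suprabasal cells (median -1.22) and at 5 of 18 in basal cells (median -0.78), by the authors' q. Junb, an AP-1 subunit, had 52.4 FPKM in suprabasal BT cells and 229 FPKM in suprabasal WT cells (-2.13 ± 0.53), and 96.0 FPKM in basal BT cells and 266 FPKM in basal WT cells (-1.47 ± 0.36), and was called in both layers. The called genes also included Jund in suprabasal cells, Ier2 in both layers, and Fos, Fosb and Klf6 in basal cells. All of these calls were lower in BT, as were those of the Hsp70 locus and Dnajb1. Of the whole list, 18 of 18 loci lay below 0 in suprabasal cells and 17 of 18 in basal cells. Nearest to 0 were Egr2 (-0.04 ± 0.40) in suprabasal cells and Egr3 (0.01 ± 0.37) and Nr4a1 (-0.03 ± 0.29) in basal cells. In the other layer Egr2 had -0.86 ± 0.38, Egr3 -0.13 ± 0.40 and Nr4a1 -0.47 ± 0.36. When the authors' p was adjusted by Benjamini-Hochberg across the loci of status OK, an alternative applied to this list after its values were seen, 3 of 18 were called in suprabasal cells and 2 of 18 in basal cells, Junb and Ier2. The part of these genes in the chaperone result was not tested.

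The levels of cell type markers and of sex-linked genes also differed between the genotypes, and the marker sums were not tested. All 7 suprabasal keratinocyte markers were measured, with sums of 4823 FPKM in suprabasal BT cells and 10790 FPKM in suprabasal WT cells, and 3786 FPKM in basal BT cells and 4436 FPKM in basal WT cells. All 7 basal keratinocyte markers were measured too, at 4642 FPKM in suprabasal BT cells and 8625 FPKM in suprabasal WT cells, and 11914 FPKM in basal BT cells and 18642 FPKM in basal WT cells. Each basal keratinocyte marker had the higher level in basal cells in both genotypes. Of the suprabasal markers, Tgm3 had the higher level in basal cells in both genotypes, and Krt1 and Dsg1a did so in BT. The sums of suprabasal markers rest largely on Krt1 and Krt10. In suprabasal cells Krt1 (-1.08 ± 1.62) and Krt10 (-1.48 ± 1.52) had no call, and 3 of 7 suprabasal markers lay above 0. The authors' deposited table called Krt15 lower in BT in both layers, with 124 FPKM in suprabasal BT cells and 1025 FPKM in suprabasal WT cells, and 308 FPKM in basal BT cells and 1602 FPKM in basal WT cells. It also called Lor lower in basal cells, with 3.18 FPKM in BT and 17.2 FPKM in WT. In every alternative setting Krt15 stayed called in suprabasal cells and was not called in basal cells. The basal call of Lor held only with the filter of at least 5 FPKM. All 7 melanocyte markers were measured in suprabasal cells, with sums of 3788 FPKM in BT and 2045 FPKM in WT, and 3 of 7 in basal cells, with 12.9 FPKM in BT and 8.38 FPKM in WT. Every measured melanocyte marker had a log2 fold change above 0. Dct had 2012 FPKM in suprabasal BT cells and 1122 FPKM in suprabasal WT cells, where Krt10 had 2354 FPKM and 6574 FPKM. Fibroblast markers summed to 29.0 FPKM in suprabasal BT cells and 18.4 FPKM in suprabasal WT cells (4 of 7 measured), and to 5.31 FPKM in basal BT cells and 9.65 FPKM in basal WT cells (1 of 7). Erythroid markers summed to 15.4 FPKM in suprabasal BT cells and 2.59 FPKM in suprabasal WT cells (2 of 5), with a log2 fold change of 3.25 ± 3.59 for Hbb-bs. No melanocyte, fibroblast or erythroid marker was called. Leukocyte markers were measured at 1 of 7 in each layer, summing to 6.66 FPKM in suprabasal BT cells and 7.14 FPKM in suprabasal WT cells, and to 5.02 FPKM in basal BT cells and 5.79 FPKM in basal WT cells, and endothelial markers at 0 of 6. Of 6 muscle markers, Tnni2 was measured, in basal cells, with 1.08 FPKM in BT and 9.44 FPKM in WT. Its q was 0.0371 in the authors' deposited table, a call lost in every alternative setting. The merged locus that holds the female-specific transcript Xist had 103 FPKM in suprabasal BT cells and 0.236 FPKM in suprabasal WT cells, and 108 FPKM in basal BT cells and 0.258 FPKM in basal WT cells. Its log2 fold change was 8.77 in suprabasal cells (q 0.141 in the authors' deposited table) and 8.71 in basal cells (q 0.0371, a call). The Y-linked gene Ddx3y had 14.1 FPKM in suprabasal BT cells and 31.2 FPKM in suprabasal WT cells, and 20.7 FPKM in basal BT cells and 32.1 FPKM in basal WT cells. The part of cell makeup and of sex in the chaperone results was not tested, and the pooled group values cannot separate sex from genotype. Lmna, the gene altered in HGPS, had 397 FPKM in suprabasal BT cells and 460.2 FPKM in suprabasal WT cells, and 536 FPKM in basal BT cells and 564 FPKM in basal WT cells, which does not report on a transgene.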

How the data were processed

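RNA was sequenced from sorted basal and suprabasal keratinocytes, 10 samples in 4 groups, in strand-specific libraries per the labels. TopHat, Cufflinks and the mm10 build are named in the submitters' processing notes; versions are not given in the sources used here. The authors deposited 1 comparison table per layer, laid out as Cuffdiff writes it per the file headers, with a group level read as FPKM, a log2 fold change, a test statistic that is a score, and a p-value and q-value.

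Loci with status OK were used (11464 of 11490 suprabasal and 11290 of 11316 basal), and 0 of them had a level of 0. The deposited log2 values matched the levels within 4.13e-05. The SE is the size of the log2 fold change over the normal quantile (two-sided) that matches the authors' p. The smallest p in the authors' test was 5e-05. For every chaperone locus the authors' test statistic would give a larger SE than p did. Calls use the authors' q under 0.05. The layer difference was tested by a Wald z-test. That step was run on simulated data with independent normal errors in the layers. The simulation checks the calculation, and it cannot show how the test behaves with shared stems. No value per sample was analysed, so precision rests on the authors' p.

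Python 3.11.15, pandas 2.3.3, NumPy 2.4.6 and SciPy 1.17.1 were used. Named genes were all chaperone loci, the heat shock factors, called genes, examples of the per-list extremes with at least 5 FPKM in the higher group, and the 5 nearest patterns; Hspa12a and the genes named from the marker and group checks fall outside this rule and were named after their values were seen. Members and lists were chosen with earlier results of these data known. Alternatives were other adjustments, a filter on low values, a pseudocount of 1 FPKM, median centring and single-gene loci; applying them to the gene lists was chosen after seeing the data. File starts were converted to 1-based coordinates. Promoters come from RefSeq (GRCm38.p6) and small RNAs from GENCODE.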

Additional observations from a re-analysis of the deposited data

How the results depend on the processing

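Dnajb1 stayed called in both layers in every setting run, but its basal adjusted p was 0.0489 after centring, just under the threshold, against 0.00858 as deposited. With loci naming a single gene only, 1 chaperone locus was called in suprabasal and 1 in basal cells, because the setting removes the merged Hsp70 locus. Centred on the median of expressed loci, 1 was called in basal cells, Dnajb1, and the adjusted p of Hspa1a/Hspa1b was 0.0524, against 0.0135 as deposited. The other adjustments kept both calls in both layers, and the layer difference stayed at 0 of 9 with an SE from the test statistic or after centring.

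Over all loci, 186 basal calls (157 lower in BT) became 63 (52 lower) with Benjamini-Hochberg adjustment over loci of status OK, 75 (62 lower) with at least 5 FPKM, 41 (27 lower) after centring and 61 (51 lower) with single-gene loci. The 54 suprabasal calls (48 lower) became 47 (42 lower), 52 (47 lower), 37 (31 lower) and 40 (37 lower) in the same settings. Centring turned Hspd1 in suprabasal cells, which was not called, to 0.01.

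Leaving out each replicate was not possible, since each group has 1 value. No paired analysis was possible because the tables hold 1 pooled value per group. The depth of the samples is unknown.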
